A study of Mus musculus with 8 samples.

Results

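Mono-ADP-ribosyltransferases of the PARP family that interferon is known to induce, and the ubiquitin ligase Dtx3l, were followed through mouse embryonic fibroblasts (MEFs) with or without glucose. The group held 6 of the 49492 gene symbols measured: Parp9, Parp10, Parp11, Parp12, Parp14 and Dtx3l. They were picked by name, and they had been chosen by their measured values across the 4 groups of these libraries. Levels of the 6 genes and differences between groups are therefore given as a description, without p-values, and counts of limma calls among them stand only beside the share over all genes, with nothing read from them. All 6 passed the filter on low values (2 or more samples at 1 or above), which 16232 genes met. The filter was not met through a single group, since the lowest value of any of the 6 genes in any library was 2.85.

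PARP enzymes transfer ADP-ribose from NAD+ to proteins, and in some cases to nucleic acids. Parp1, Parp2 and the tankyrases build chains of ADP-ribose, while most other members, among them those described here, attach single units or have little activity alone. Interferon signals through kinases at its receptors to transcription factors, Stat2 and Irf9 among them, that act at the interferon-stimulated response element (ISRE) in the promoters of target genes. The gamma-activated site (GAS) is another sequence pattern of interferon-induced promoters. Several interferon-induced PARPs limit the growth of viruses, and viral macrodomains can remove the ADP-ribose that they attach. Parp9 and Dtx3l form a heterodimer, and their genes lie head to head in the mouse genome next to Parp14.

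The 8 RNA-seq libraries came from Pontin f/f MEFs, immortalized by serial passage, in which endogenous Pontin (Ruvbl1, an ATPase of chromatin-remodeling complexes) had been deleted by Cre virus and replaced by a stably expressed Flag-tagged copy. The copy was wild type (WT) or had alanine in place of the R333 and R339 arginines (RA), the sites at which the arginine methyltransferase CARM1 methylates Pontin. Each line was cultured in normal medium or in glucose-free medium with dialyzed serum, with 2 replicates in each of the 4 groups. The time of starvation for RNA-seq was not stated in the sources used here. Each Pontin form was carried by 1 selected line, so that an effect of the line and an effect of the Pontin form cannot be told apart. The labels do not say whether the 2 replicates came from separate cultures, and the study's general statement that experiments were repeated independently does not name these libraries, so that p-values measure the spread between these samples, which may be technical.

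Depth ran from 43205841 to 56363034 recovered reads per library, and 3 reads corresponded to a value of 0.0548 to 0.069. Values are CPM, read counts set to a common library total, for which the authors had scaled the library size (scaled CPM). The least read counts behind a value of the 6 genes were 156 and 172, both for Parp14 in starved WT cells. Ruvbl1 was read at 28.4 and 27.6 in WT cells in normal medium, 27.9 and 28.4 in starved WT cells, 36.8 and 32.1 in RA cells in normal medium, and 45.1 and 42.9 in starved RA cells. Ruvbl1 values were thus higher in RA than in WT cells in both media, by 0.29 on the log2 scale in normal medium (limma adjusted p = 0.0095) and by 0.62 under starvation (limma adjusted p = 2.94e-07), and the table does not separate the added from the endogenous copy. Of 10 fibroblast markers, 9 had a value over 1, and their sum was 8468 to 8821 in both lines in normal medium, 3163 to 3238 in starved WT cells and 4189 to 4201 in starved RA cells. The summed level of 10 macrophage and leukocyte markers was 22.1 to 22.2 in WT cells in normal medium, 25.6 to 26.6 in starved WT cells, 24.9 to 25.7 in RA cells in normal medium and 24.6 to 24.9 in starved RA cells. Csf1r had the highest value among them, at 10.4 to 20.1, whereas Ptprc and Tyrobp had at most 2 reads in any library. Sums ran from 0.598 to 2.19 for 5 dendritic cell markers, from 2.02 to 9.43 for 4 endothelial markers and from 1.44 to 3.21 for 5 epithelial markers. Fibroblast sums were lower, and endothelial and dendritic sums higher, in the starved than in the unstarved libraries of each line. Dcn, on the fibroblast list, was instead higher, with means of 5.90 and 7.44 in WT and 13.5 and 34.9 in RA cells, for normal medium and starvation. Among endothelial markers only Kdr and Tek were higher, and Pecam1 and Cdh5 had lower means in starved cells of both lines. Pecam1 means were 0.39 and 0.0693 in WT and 0.154 and 0.142 in RA cells, from at most 22 reads per library. Cdh5 means were 0.295 and 0.021 in WT and 0.131 and 0.0783 in RA cells, from at most 16. Of the dendritic markers Zbtb46, the highest in level, Itgax and Flt3 had higher means in starved cells, Xcr1 lower means and Siglech no reads. The part of these differences in the values given here was not tested. In bulk RNA, a smaller number of expressing cells cannot be told apart from less RNA per cell.

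Promoter windows are shown because the 6 genes share an interferon-linked annotation and moved together in 3 of the 5 contrasts. RefSeq windows of 300 bases (250 before to 50 after the transcription start, GRCm38.p6) were found for 3 of the 6 genes, as 4 windows. Parp9, Parp10 and Parp14 had no window in the table used. Capitals mark the letters of a match to the ISRE core GAAANNGAAA or to the GAS pattern TTCNNNGAA, searched on both strands.
Parp11, chr6:127446590-127446889, plus strand: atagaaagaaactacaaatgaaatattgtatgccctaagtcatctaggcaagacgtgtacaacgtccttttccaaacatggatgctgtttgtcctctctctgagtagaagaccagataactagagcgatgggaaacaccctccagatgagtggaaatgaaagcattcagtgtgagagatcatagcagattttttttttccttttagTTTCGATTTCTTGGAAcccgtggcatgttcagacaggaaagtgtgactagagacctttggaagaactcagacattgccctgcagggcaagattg
Parp12, chr6:39118300-39118599, minus strand: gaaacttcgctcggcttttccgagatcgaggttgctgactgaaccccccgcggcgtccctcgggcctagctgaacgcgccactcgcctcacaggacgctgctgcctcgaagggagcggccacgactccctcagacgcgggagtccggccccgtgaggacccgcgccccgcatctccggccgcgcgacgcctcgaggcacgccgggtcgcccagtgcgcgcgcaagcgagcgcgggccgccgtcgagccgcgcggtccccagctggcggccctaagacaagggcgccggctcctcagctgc
Dtx3l, chr16:35938978-35939277, minus strand: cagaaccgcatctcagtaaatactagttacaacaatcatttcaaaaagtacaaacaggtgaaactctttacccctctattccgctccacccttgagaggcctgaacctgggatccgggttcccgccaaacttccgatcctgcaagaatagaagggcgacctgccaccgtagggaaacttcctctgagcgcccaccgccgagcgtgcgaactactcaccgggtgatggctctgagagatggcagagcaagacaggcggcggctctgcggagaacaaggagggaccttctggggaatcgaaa
The upstream Parp11 window was the only one of the 4 with a match. Its ISRE core was read on the opposite strand (TTTCGATTTC on the gene strand), from 44 bases before the start, and its GAS pattern TTCTTGGAA began 37 bases before the start. These 2 matches overlapped, so that the capitals form a single run. The other Parp11 window, at chr6:127453377-127453676 on the plus strand, held neither pattern, nor did the Parp12 and Dtx3l windows. Among 32851 windows of the same length, 3.443% held the ISRE core and 8.298% held the GAS pattern. The windows also differed in base composition. GC content was 73.7% for Parp12 with 46 CpG dinucleotides, 54.3% for Dtx3l with 17, 59% for the downstream Parp11 window with 25, and 42% for the upstream Parp11 window with 5, against a median of 52.7% over all windows. A match is a description of letters, and a window without one says nothing on binding elsewhere.

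Parp14, Dtx3l and Parp9 formed a run of adjacent genes, and their values are given first. Parp14 carries macrodomains, which bind ADP-ribose, together with a transferase domain. Its values were 36.9 and 35.7 in WT cells in normal medium, 3.60 and 2.85 in starved WT cells, 80.1 and 75.1 in RA cells in normal medium, and 88.3 and 87.4 in starved RA cells. No pair of groups overlapped. Starved WT cells lay lowest, at 8.89% of their normal-medium mean, and starved RA cells lay highest. Dtx3l, a ubiquitin ligase of the deltex family, read 28.9 and 29.8 in WT cells in normal medium, 6.96 and 6.41 in starved WT cells, 56.5 and 55.6 in RA cells in normal medium, and 52.2 and 56.1 in starved RA cells. Its order of levels was starved WT, WT in normal medium and then both RA groups, which overlapped. Parp9, the partner of Dtx3l, read 48.9 and 51.5 in WT cells in normal medium, 10.6 and 9.76 in starved WT cells, 104.8 and 104.3 in RA cells in normal medium, and 89.3 and 90.6 in starved RA cells. Parp9 was the only 1 of the 6 genes with lower values in every starved than in every unstarved RA library. Starved WT cells kept 20.3% of the normal-medium mean of Parp9 and 22.8% of that of Dtx3l.

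Parp10, Parp12 and Parp11 lie at separate loci, and each had its highest values in starved RA cells. Parp10, an enzyme that attaches single ADP-ribose units and carries ubiquitin-interaction motifs, read 21.8 and 21.2 in WT cells in normal medium, 8.84 and 8.51 in starved WT cells, 49.7 and 47.9 in RA cells in normal medium, and 77.3 and 78.3 in starved RA cells. The 4 groups did not overlap, and starved WT cells kept 40.4% of the normal-medium mean. Parp12, a zinc finger protein that binds RNA, read 72.7 and 73.5 in WT cells in normal medium, 16.3 and 15.8 in starved WT cells, 162 and 153 in RA cells in normal medium, and 214 and 212 in starved RA cells. It had the highest value of the 6 genes in every library. Parp11, a further enzyme of the mono-ADP-ribosylating type, read 13.0 and 13.7 in WT cells in normal medium, 12.9 and 11.4 in starved WT cells, 24.3 and 23.1 in RA cells in normal medium, and 40.0 and 43.7 in starved RA cells. Parp11 thus differed from the others in WT cells, where its means in normal and starved cells (13.4 and 12.1) were 1.24 apart beside an SD of up to 1.04.

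**Figure D1:**
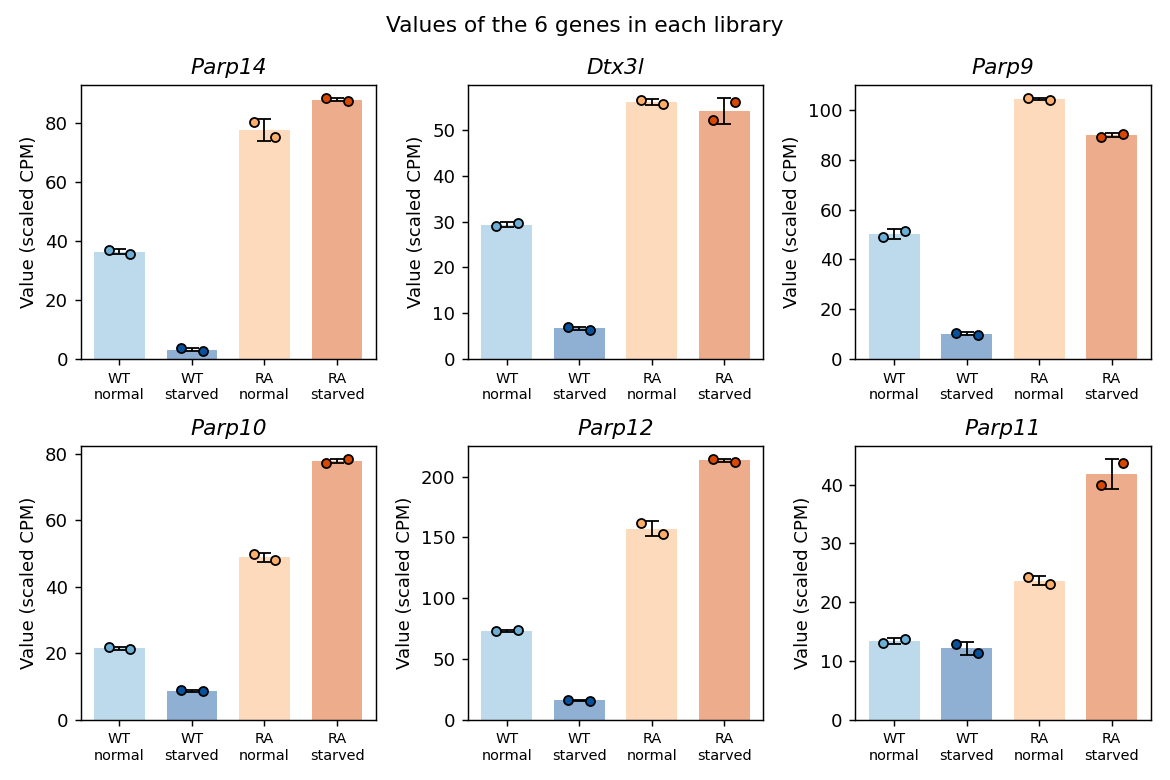
Values of the 6 genes in scaled CPM (y axis, each panel on its own linear scale from 0) in the 4 groups (x axis), with points for the 2 libraries of each group, bars for their mean and error bars for the SD. Starved WT libraries are lowest in each panel, down to 2.85 for Parp14, and for Parp11 they lie close to the WT libraries in normal medium.

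Levels between genes were compared per kilobase of exon (GENCODE lengths on GRCm38). Parp12 was highest on that scale in all 4 group means, at 18.3 in WT cells in normal medium, 4.02 in starved WT cells, 39.4 in RA cells in normal medium and 53.4 in starved RA cells. Parp9 followed at 10.3 per kilobase in WT cells and 21.5 in RA cells in normal medium, and Dtx3l stood at 5.13 and 9.79. Parp10 stood at 5.03 and 11.4, and Parp14 at 3.90 and 8.34. Parp11 was lowest in normal medium, at 1.90 per kilobase in WT and 3.37 in RA cells. In starved WT cells Parp14 was lowest, at 0.347 per kilobase against 1.73 for Parp11. In starved RA cells Parp10 reached 18.2 per kilobase, beside 18.5 for Parp9. For scale, the PARP family gene Zc3hav1 stood at 16.8 per kilobase in WT and 23.2 in RA cells in normal medium.

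In normal medium the 6 genes stood 1.77 to 2.27 times higher in RA than in WT cells, as ratios of group means. Parp10 showed the ratio of 2.27, Parp12 2.15, Parp14 2.14, Parp9 2.08, Dtx3l 1.91 and Parp11 1.77, and no RA library overlapped a WT library for any of them. Fitted differences in log2(value + 1), RA minus WT, were 1.15 with an SE of 0.057 for Parp10, 1.10 with an SE of 0.043 for Parp12, and 1.07 with an SE of 0.073 for Parp14. They were 1.04 with an SE of 0.052 for Parp9, 0.91 with an SE of 0.062 for Dtx3l and 0.78 with an SE of 0.076 for Parp11. The median of the 6 was 1.06, beside a median of 0.01 over all genes tested. All 6 were called higher by limma, where 6.68% of all genes tested were called higher and 2.95% lower. This contrast served to choose the genes, so nothing is read from that count. Of all called genes 69.4% were higher in RA cells with the deposited scaling and 40.5% with scaling to total recovered reads, with all 6 genes higher under both.

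Under starvation the gap between the lines was wider for each of the 6 genes. Parp14 stood 27.2 times higher in RA than in WT cells and Parp12 13.3 times higher. The ratio was 8.97 for Parp10, 8.83 for Parp9, 8.10 for Dtx3l and 3.45 for Parp11. On the log2(value + 1) scale the difference was 4.40 with an SE of 0.073 for Parp14, 3.65 with an SE of 0.043 for Parp12, 3.03 for Parp10, 3.02 for Parp9 and 2.84 for Dtx3l. Parp11 had the smallest difference, at 1.71 with an SE of 0.076. Among 16232 genes ordered by this difference, Parp14 stood at place 35 from the highest, Parp12 at 63 and Parp11 at 311. The median of the 6 was 3.03, beside -0.01 over all genes tested. All 6 were called higher by limma, where 30.8% of all genes tested were called higher and 32.1% lower, and nothing is read from that count either.

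Values in starved WT cells were lower than in unstarved ones to a degree that differed among the 6 genes. The response, starved minus normal on the log2(value + 1) scale, was -3.15 with an SE of 0.073 for Parp14, -2.19 with an SE of 0.052 for Parp9 and -2.12 with an SE of 0.043 for Parp12. It was -1.98 for Dtx3l, -1.22 for Parp10 and -0.13 with an SE of 0.076 for Parp11. In terms of group means, Parp14 was 11.2 times lower in starved WT cells, Parp9 4.93 times, Parp12 4.55 times, Dtx3l 4.39 times and Parp10 2.48 times. Parp14 stood at place 92 from the lowest of all 16232 genes, whereas Parp11 stood at 6899. Limma called 5 of the 6 lower, Parp11 being the exception, where 39.2% of all genes tested were called lower and 39.3% higher. This contrast too was among those used to choose the genes. With scaling to total recovered reads, or without WT_GS replicate 1, 6 were called lower. Across all alternatives the Parp11 response in WT cells ran from -0.21 to 0.01, so that its sign was not stable. The median of the 6 was -2.05, beside 0.00 over all genes tested.

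In RA cells the responses of the 6 genes were of both signs, and smaller in size than in WT cells for all but Parp11. Parp11 had the highest, at 0.79 with an SE of 0.076, followed by Parp10 at 0.66 with an SE of 0.057 and Parp12 at 0.44 with an SE of 0.043. In group means these were 1.76, 1.59 and 1.36 times the normal-medium level. The 3 adjacent genes responded less, with 0.18 for Parp14, -0.05 with an SE of 0.062 for Dtx3l and -0.21 for Parp9. These corresponded to 113%, 96.7% and 86.1% of the normal-medium level. Across all alternatives the Dtx3l response in RA cells ran from -0.10 to 0.003, so that its sign was not stable. Limma called 4 of the 6 higher and 1, Parp9, lower, where 35% of all genes tested were called higher and 33.7% lower. Between 3 and 4 were called higher across the alternatives. Nothing is read from these counts. The median of the 6 was 0.31, beside 0.01 over all genes tested.

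The interaction, the response in RA cells less the response in WT cells, was positive for each of the 6 genes. It was 3.32 with an SE of 0.103 for Parp14, 2.56 with an SE of 0.061 for Parp12, 1.98 with an SE of 0.074 for Parp9, 1.93 with an SE of 0.088 for Dtx3l, 1.88 with an SE of 0.081 for Parp10 and 0.92 with an SE of 0.108 for Parp11. All 6 were called higher by limma, where 24.5% of all genes tested were called higher and 26.1% lower. Nothing is read from that count, for the same reason. The contrasts share their control samples, and the 5 sets of differences are therefore not independent of each other.

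**Figure D2:**
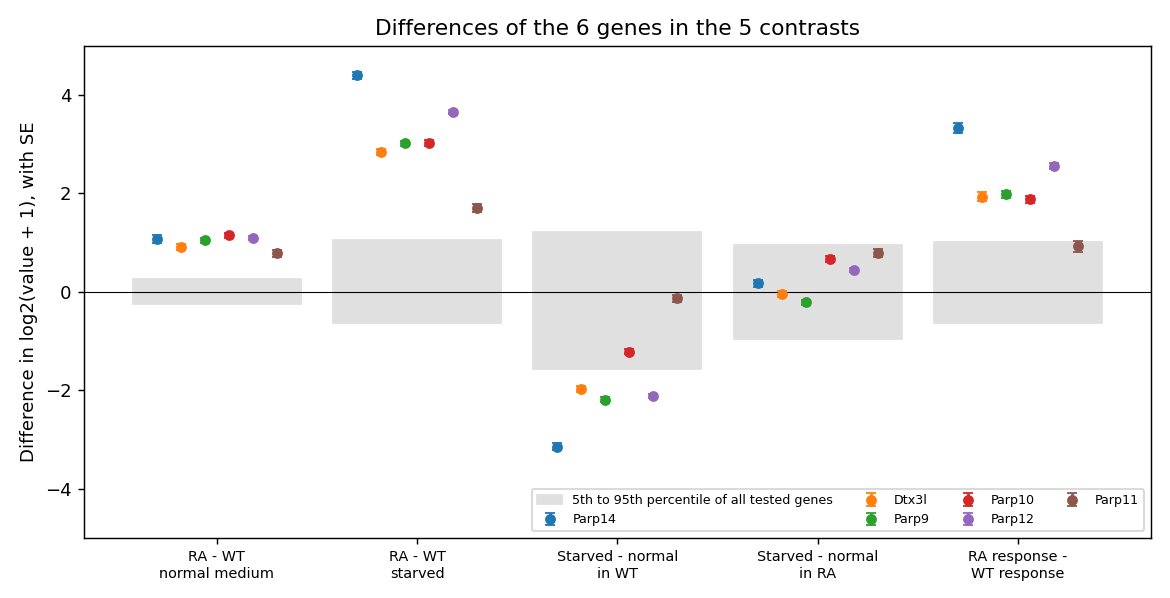
Fitted differences of the 6 genes (y axis, log2(value + 1), points with SE bars) in the 5 contrasts (x axis), over grey bands that span the 5th to the 95th percentile of all 16232 genes tested. In normal medium the 6 points lie between 0.78 and 1.15, and in starved cells they spread from 1.71 for Parp11 to 4.40 for Parp14.

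The 6 genes did not keep fixed proportions to each other. The ratio of Parp9 to Dtx3l values was the steadiest, at 1.69 and 1.73 in WT cells in normal medium, 1.53 and 1.52 in starved WT cells, 1.86 and 1.88 in RA cells in normal medium, and 1.71 and 1.61 in starved RA cells. The ratio of Parp14 to Parp9 was 0.755 and 0.693 in WT and 0.765 and 0.72 in RA cells in normal medium. It was 0.339 and 0.292 in starved WT cells but 0.988 and 0.966 in starved RA cells, so that starvation moved it down in WT and up in RA cells. The ratio of Parp10 to Parp9 was 0.411 to 0.475 in the 4 libraries from normal medium and 0.832 to 0.873 in the 4 starved libraries, with no overlap between media and nearly the same level in both lines. The ratio of Parp11 to Parp9 was 0.266 and 0.267 in WT and 0.231 and 0.222 in RA cells in normal medium, 1.21 and 1.17 in starved WT cells, and 0.447 and 0.482 in starved RA cells. Over the 8 libraries, Pearson's r was 0.999 between Parp9 and Dtx3l and 0.997 between Parp14 and Dtx3l. Parp11 correlated with the other 5 genes at 0.738 to 0.93, lowest with Parp9. These 8 points fall into 4 groups, and the coefficients are given as a description.

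Reads over shared exon bases could contribute to some of these values, since the handling of strand and of overlapping genes was not stated. In the GENCODE annotation of GRCm38, which is not the build of the files, exons of Parp9 and Dtx3l share 458 bases on opposite strands, and exons of Parp10 and the cytoskeletal linker gene Plec share 205 bases on the same strand. With even coverage, the level of Parp9 per base would place 4.72 of the 29.4 scaled CPM of Dtx3l over shared bases in WT cells in normal medium, and 0.958 of 6.68 in starved WT cells. The level of Plec would place 5.62 of the 21.5 scaled CPM of Parp10 over shared bases in WT cells in normal medium, 1.96 of 8.68 in starved WT cells, 5.41 of 48.8 in RA cells in normal medium and 3.82 of 77.8 in starved RA cells. Plec fell under starvation by 1.51 on the log2 scale in WT cells (limma adjusted p = 3.69e-15) and by 0.50 in RA cells (limma adjusted p = 2.34e-08), and the Parp10 responses were -1.22 and 0.66. The part of shared reads in the values of Parp10, Parp9 and Dtx3l was not tested.

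Beyond the 6 genes, the genes of ADP-ribosylation were read from a list of 22 written with earlier results of these data known, of which 20 could be tested. The list held 11 other PARP genes, all tested, 7 genes for the removal of ADP-ribose and 4 deltex genes. Whether interferon induces genes of this list, Zc3hav1 among them, was not assessed. The list can therefore not be read as a set without interferon-induced genes. In normal medium 1 of the 20 was called higher in RA cells and 1 lower, beside 6.68% and 2.95% of all genes. The gene called higher was Zc3hav1, an antiviral PARP family protein that binds CpG-rich viral RNA. Its values were 111 and 108 in WT and 151 and 151 in RA cells in normal medium, then 141 and 142 in starved WT and 200.3 and 197 in starved RA cells. Zc3hav1 rose under starvation in both lines, by 0.37 in WT cells (limma adjusted p = 7.21e-08) and 0.39 in RA cells (limma adjusted p = 5.83e-08). Its difference between the lines was 0.46 in normal medium (limma adjusted p = 1.93e-07) and 0.49 in starved cells (limma adjusted p = 6.3e-09), and its interaction was 0.02. The gene called lower was Dtx3, a deltex ligase, at 36.7 and 36.2 in WT against 29.9 and 31.0 in RA cells, a difference of -0.25 (limma adjusted p = 0.00331).

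Under starvation 5 of the 20 were called higher and 7 lower in RA than in WT cells, near the 30.8% and 32.1% of all genes. The highest was Macrod2, a hydrolase that removes mono-ADP-ribose, with a difference of 0.62 (limma adjusted p = 2.38e-06). The lowest was the related Macrod1, with -0.46 (limma adjusted p = 0.000998). Among PARP genes alone 3 were higher and 4 lower, with Parp3, an enzyme of DNA break repair, highest at 0.49 (limma adjusted p = 2.25e-08) and Parp2, another enzyme of DNA repair, lowest at -0.31 (limma adjusted p = 0.000126). The median over the 20 was -0.15, beside -0.01 over all genes tested.

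In response to starvation itself, 13 of the 20 were called higher and 6 lower in WT cells, and 13 higher and 4 lower in RA cells. Over all genes the shares were 39.3% higher and 39.2% lower in WT cells and 35% and 33.7% in RA cells. Dtx3 had the highest response in WT cells, 1.11 (limma adjusted p = 1.29e-12), and also rose in RA cells, by 1.07. Parp6 rose by 0.997 in WT cells (limma adjusted p = 1.92e-10) and Parp8 by 1.16 in RA cells (limma adjusted p = 1.3e-12). Parp16, an enzyme of the endoplasmic reticulum, fell by 0.60 in WT cells (limma adjusted p = 0.00377) and by 0.64 in RA cells (limma adjusted p = 0.0028), from values of 3.87 and 2.82. Macrod2 read 21.9 and 24.9 in WT cells in normal medium and 11.3 and 11.0 after starvation, while RA cells went from 21.0 and 22.1 to 18.0 and 17.4. Adprhl2, which hydrolyses ADP-ribose on serine, rose by 0.68 in WT cells (limma adjusted p = 5.51e-07) and by 0.32 in RA cells (limma adjusted p = 0.00171). Oard1, which removes ADP-ribose from acidic residues, fell most among the eraser genes in RA cells, by 0.49 (limma adjusted p = 1.59e-05).

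The interaction was called for 9 of the 20 genes, 4 higher and 5 lower, near the 24.5% and 26.1% of all genes. Macrod2 was highest at 0.74 (limma adjusted p = 3.18e-05) and Adprhl2 lowest at -0.36 (limma adjusted p = 0.014), and the 20 ranged within these values. The 6 genes ranged from 0.92 to 3.32, but they were chosen with these contrasts in view, so nothing is read from the gap. Parp3 had an interaction of 0.39 (limma adjusted p = 4.13e-05) and Parp2 of -0.31 (limma adjusted p = 0.0035). Without WT_GS replicate 1 the count was 5 of 20.

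**Figure D3:**
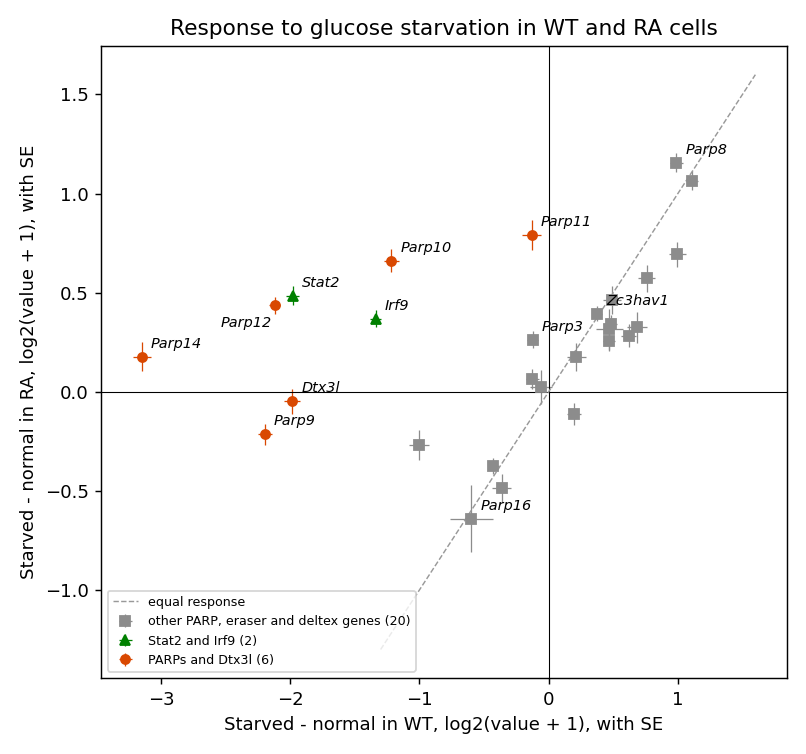
Response to glucose starvation in RA cells (y axis) against that in WT cells (x axis), both as starved minus normal in log2(value + 1) with SE, for the 6 genes (orange circles), the 20 other ADP-ribosylation genes tested (grey squares) and Stat2 and Irf9 (green triangles), with a dashed line of equal response. The grey squares have interactions of -0.36 to 0.74. The orange circles lie to the upper left of the line, from Parp11 at -0.13 and 0.79 to Parp14 at -3.15 and 0.18. The 6 genes were chosen on such values, so nothing is read from the gap.

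Stat2 and Irf9, whose products act at ISRE sequences, are themselves interferon-induced genes. Stat2 read 128 and 129 in WT cells in normal medium, 33.7 and 29.9 in starved WT cells, 218 and 212 in RA cells in normal medium, and 303 and 300.1 in starved RA cells. Irf9 read 78.8 and 81.3 in WT cells in normal medium, 31.4 and 30.7 in starved WT cells, 112 and 118 in RA cells in normal medium, and 147 and 149 in starved RA cells. For both genes the 4 groups did not overlap, with starved WT cells lowest and starved RA cells highest. The difference between the lines was 0.74 for Stat2 (limma adjusted p = 1.06e-08) and 0.51 for Irf9 (limma adjusted p = 3.66e-07) in normal medium, and 3.21 and 2.22 in starved cells. Stat2 fell in starved WT cells by 1.98 (limma adjusted p = 3.27e-16) and Irf9 by 1.34 (limma adjusted p = 1.73e-14). In RA cells Stat2 rose by 0.48 (limma adjusted p = 1.07e-07) and Irf9 by 0.37 (limma adjusted p = 9.06e-07). The interaction was 2.47 for Stat2 and 1.71 for Irf9, with limma adjusted p-values of 2.08e-14 and 5.95e-13. Exons of Irf9 share 123 bases with Rnf31 on the same strand, so that some of its reads cannot be assigned to 1 gene.

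NAD+ is the substrate of these enzymes, and 11 of 13 genes of its supply and use were tested. In RA cells in normal medium 1 was called higher, Nampt, the rate-limiting enzyme of NAD+ salvage, with a difference of 0.37 (limma adjusted p = 1.18e-05). Nampt read 81.4 and 80.7 in WT and 108 and 102 in RA cells in normal medium, and 104.1 and 104.6 in WT and 148 and 151 in RA cells after starvation. The gene called lower was the mitochondrial NAD kinase gene Nadk2, with -0.24 (limma adjusted p = 0.00138). Under starvation 4 of the 11 were called higher and 3 lower in RA than in WT cells, near the 30.8% and 32.1% of all genes. Nmnat2, a cytosolic enzyme that completes NAD+ synthesis, was highest at 1.32 (limma adjusted p = 3.71e-07), from 0.545 and 0.402 in WT to 2.43 and 2.93 in RA cells, and Nadk2 lowest at -0.59 (limma adjusted p = 2.22e-09). These 7 calls fell to 3 without WT_GS replicate 2 or RA_GS replicate 1 and to 4 without RA_GS replicate 2. The response to starvation was called for 4 higher and 3 lower genes in WT cells, from 1.034 for Nmnat3 to -1.75 for Nmnat2, and for 5 higher and 4 lower genes in RA cells, from 0.89 for the nicotinamide methyltransferase Nnmt to -0.96 for Nadk2. Over all genes these shares were 39.3% higher and 39.2% lower in WT cells and 35% and 33.7% in RA cells. The interaction was called for 3 genes higher and 1 lower, beside 24.5% and 26.1% of all genes, with Nmnat2 highest at 0.97 (limma adjusted p = 0.00065) and Nadk2 lowest at -0.35 (limma adjusted p = 0.000101). It was called for 2 genes without WT_CTL replicate 1, WT_GS replicate 2, RA_CTL replicate 2 or RA_GS replicate 1.

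Genes next to the 4 loci, up to 3 on each side in the order of RefSeq, gave the local background. Of 23 neighbours with a row, 17 were tested. By limma 0 of the 17 were called higher in RA cells in normal medium (1 at an unadjusted p under 0.05, and 0 by edgeR and by DESeq2), and 1, the semaphorin gene Sema5b, was called lower, by 0.43 (limma adjusted p = 0.0114). That call was lost without WT_CTL replicate 1, without RA_CTL replicate 1 and without the filter on low values. Without RA_CTL replicate 1, Grina was called higher instead, with a difference of 0.30. Under starvation 6 of the 17 were called higher and 6 lower in RA than in WT cells, near the 30.8% and 32.1% of all genes. Hspbap1, the gene beside Parp14, read 28.5 and 28.1 in WT cells in normal medium and 44.0 and 43.8 in starved WT cells, against 29.3 and 30.3 and then 29.3 and 30.3 in RA cells. It rose in WT cells by 0.62 (limma adjusted p = 1.56e-08), where Parp14 had a response of -3.15, and its interaction was -0.62 (limma adjusted p = 5.11e-06). Kpna1, the gene beside Parp9, had an interaction of -0.07, and its 2 starved RA libraries lay apart at 83.8 and 110.5. Wdr5b, beyond Kpna1, had a response of -1.32 in WT cells (limma adjusted p = 7.66e-08). It read 3.57 and 3.27 in WT cells in normal medium and 0.775 and 0.767 in starved WT cells. Its interaction was 0.52 (limma adjusted p = 0.0274). Exons of Wdr5b share 168 bases with Fam162a on the opposite strand. Fam162a had means of 50.7 in WT cells in normal medium and 98.2 in starved WT cells. The part of shared reads in the values of Wdr5b was not tested. The other tested neighbours of this locus had higher means in starved than in unstarved WT cells.

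At the other loci, Plec beside Parp10 fell in WT cells by 1.51 and had an interaction of 1.01 (limma adjusted p = 8.37e-10). Grina, on the other side of Parp10, read 84.8 and 86.2 in WT cells in normal medium and 385 and 393 after starvation, the highest response among the neighbours at 2.17, and its interaction was -0.88 (limma adjusted p = 4.58e-07). Kdm7a, a histone demethylase gene beside Parp12, rose in WT cells by 1.82 and had an interaction of -0.53 (limma adjusted p = 0.0125). Ccnd2, the cyclin D2 gene beside Parp11, had an interaction of 0.08. Tspan11, the third gene after Parp11, had the highest interaction, 1.39 (limma adjusted p = 2.12e-05), at values of 4.07 and 4.09 in WT cells in normal medium, 0.251 and 0.164 in starved WT cells and 2.29 and 1.53 in starved RA cells. The interaction was called higher for 5 and lower for 5 of the 17, near the 24.5% and 26.1% of all genes.

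**Figure D4:**
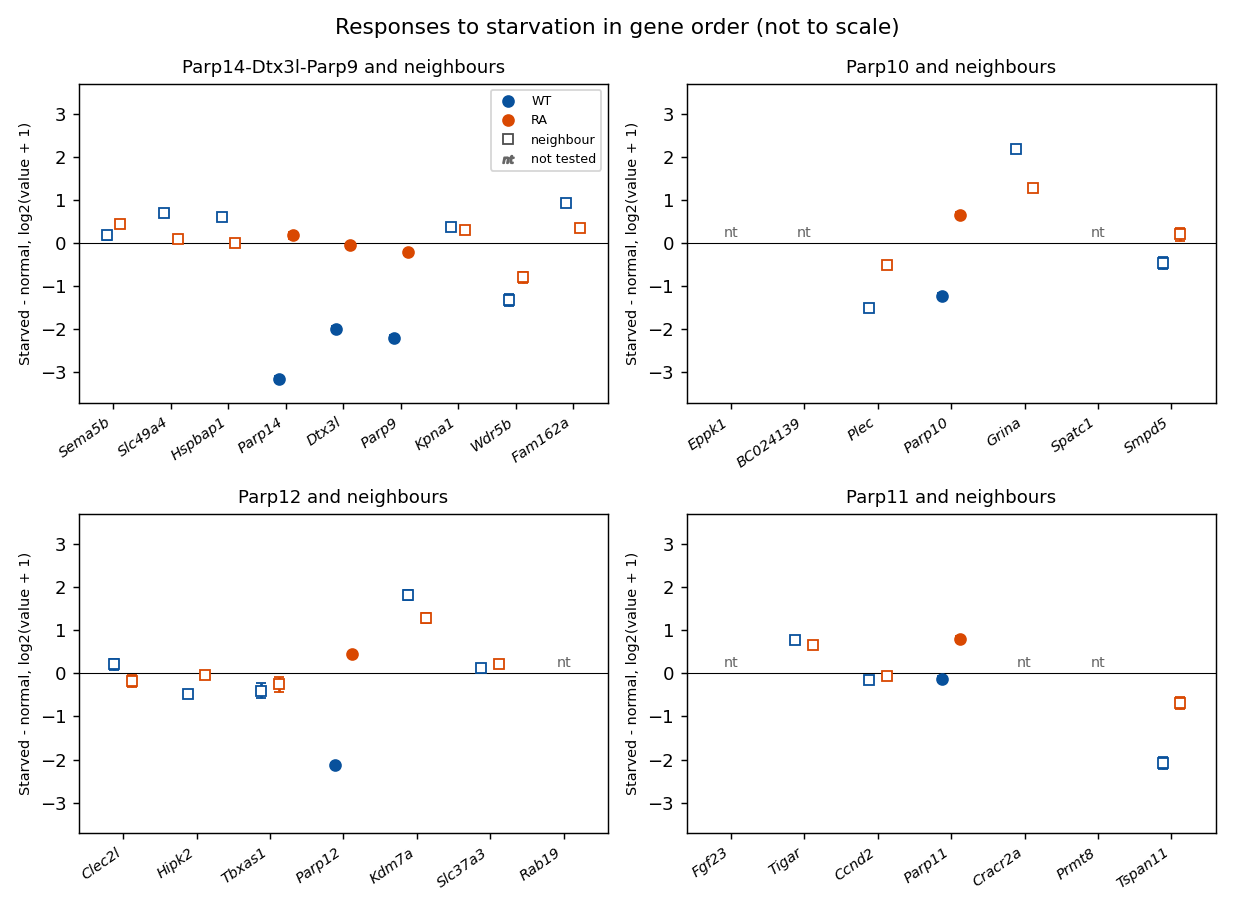
Response to glucose starvation in WT (blue) and RA (orange) cells, as starved minus normal in log2(value + 1) with SE (y axis), for the 6 genes (filled circles) and their neighbours (open squares) in gene order, not to scale (x axis), with nt for genes that were not tested. At the locus of Parp14, Dtx3l and Parp9 the blue circles lie between -1.98 and -3.15, while the blue squares of the adjacent Hspbap1 and Kpna1 lie above 0. The blue square of Wdr5b, beyond Kpna1, lies at -1.32.

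Among 3131 other genes with a mean of at least 1 and an SD of at least 0.5, the 5 whose values over the 8 libraries were most like the mean profile of the 6 genes were Prl2c2, Adar, Prl2c3, Oas1a and Gbp2, with Pearson's r from 0.998 to 0.999. Adar edits adenosine in double-stranded RNA, Oas1a is an oligoadenylate synthetase, and Gbp2 is a guanylate-binding protein. Gbp2 means were 14.2 in WT cells in normal medium, 1.52 in starved WT cells, 38.4 in RA cells in normal medium and 65.4 in starved RA cells. Adar means were 112, 69.6, 161 and 181 in the same order. Prl2c2 and Prl2c3 are near-identical paralogs, so that their separate values are uncertain, and exons of Adar share 1365 bases with Chrnb2 on the opposite strand.

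Nearest profiles differed between the 6 genes. Parp14 was nearest to Krt80, a keratin gene, followed by Irgm1 and Agrn, the gene of the basement membrane protein agrin, and Dtx3l to Irgm1, Gm44935 and Ifi205. Krt80 means were 23.4 and 11.8 in WT and 28.9 and 29.6 in RA cells, for normal medium and starvation. Irgm1, an interferon-inducible GTPase, was thus near both Parp14 and Dtx3l, with means of 103 and 12.4 in WT and 232 and 245 in RA cells, for normal medium and starvation. Parp9 was nearest to Gm44935, Irgm2 and Rnf213, of which Gm44935 shares 1476 exon bases with Rnf213 on the opposite strand. Parp10 was nearest to Olr1, Tgtp2 and Ifi44, and Ifi44 means were 46.8 and 7.68 in WT and 183 and 505 in RA cells. Parp12 was nearest to Ifit3, Cxcl10 and Art3. Art3 means of 55.1, 5.84, 139 and 217 nearly matched those of Cxcl10, with which it shares exon bases on the opposite strand, so that Art3 is uncertain. Parp11 was nearest to Zbp1, Nlrc5 and Grem1, with Pearson's r of 0.991 to 0.994, lower than the best of each of the other 5 genes. Zbp1, a sensor of Z-form nucleic acid, had means of 1.28 and 0.398 in WT and 6.33 and 29.1 in RA cells. Grem1, a BMP antagonist, had means of 572 and 490.4 in WT and 888 and 1819 in RA cells.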

How the data were processed

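The authors made polyA libraries with TruSeq RNA v2, sequenced paired ends on a HiSeq 4000 and mapped them to mm9 with TopHat2 (version 2.0.9, from the submitters' processing notes, which also name bedtools and edgeR). Counter, annotation, strand handling and filter are not given in the sources used here. The deposited values are a signal, in which the authors scaled each library's size before computing CPM (the planned unit). Whole reads were recovered (100% of values within 0.1 of a whole number), and 78.2% to 80.5% of counts from 1 to 9 were even. With paired ends both reads of a fragment can be counted, so that fragments can be fewer than the reads given here. No marking of PCR copies is described in the sources used here, so that a read count can overstate the number of separate molecules. The SEs and p-values come from the spread between samples, not from counting error. Columns named minus and plus were read as normal medium and starvation.

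Values were tested as log2(value + 1), which understates changes of low genes, with limma (version 3.58.1, R version 4.3.3): a mean per group over 8 samples, eBayes with trend, 2-sided p-values, Benjamini-Hochberg adjustment over the 16232 genes of each contrast and calls at adjusted p under 0.05. The code was tested on simulated data. The 6 genes and all lists were chosen with earlier results of these data known, so that no count over them is independent support. Named genes were the 6 genes, the extremes among the called members of each list and contrast, Stat2, Irf9, Ruvbl1, any tested neighbour, and the genes nearest in profile (5 to the mean profile, 3 to each gene). Replicates differed beyond counting noise (chi-square per degree of freedom from 3.42 to 15.9). A gene of the rule is not reported here. Slc49a4 was read as Dirc2, and 1 further neighbour had no match. Sequences and gene order are from RefSeq (GRCm38.p6), with no conversion between builds. Alternatives were a pseudocount of 0.1, no filter, 3 other scalings, a replicate block, edgeR (version 4.0.16), DESeq2 (version 1.42.0) and leaving out each library.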

Additional observations from a re-analysis of the deposited data

Results flagged for a closer look

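Several results were noted because the response to starvation differed between the WT and RA lines by the interaction test of limma. They were the counts of called genes, 9 of 20 other ADP-ribosylation genes, 4 of 11 NAD genes and 10 of 17 neighbours, where 24.5% of all genes tested were called higher and 26.1% lower. They also included the highest and the lowest called gene of each list. Macrod2 (0.74), Nmnat2 (0.97) and Tspan11 (1.39) fell more in WT than in RA cells. Adprhl2 (-0.36) and Grina (-0.88) rose more in WT than in RA cells. Nadk2 (-0.35) fell more in RA than in WT cells.

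For 4 of the 6 interferon-linked genes, every starved WT library lay below every unstarved WT library and every starved RA library above every unstarved RA library. The difference between the responses was 1.88 for Parp10, 0.92 for Parp11, 2.56 for Parp12 and 3.32 for Parp14. This is a description, given without a p-value since these genes were chosen on the same values. For Parp11 the WT libraries were only 0.136 apart at their nearest.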

How the results depend on the processing

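Direction held for the median of the 6 genes in all 16 alternative fits for each of the 5 contrasts, and that median moved by at most 0.16. In normal medium it was 1.01 with total-read scaling and 1.01 with quantile normalization. In starved cells it was 3.14 with a pseudocount of 0.1, 2.93 with quantile normalization, 3.18 with edgeR, 3.14 with DESeq2, and 2.98 to 3.07 on leaving out a library. The WT response was -2.15 (pseudocount 0.1), -2.12 (total reads), -1.96 (quantile), -2.20 (edgeR), -2.17 (DESeq2) and -2.09 to -2.01 on leaving out a library. The RA response was 0.35 with quantile normalization and 0.27 to 0.35 on leaving out a library. The interaction was 2.07 (pseudocount 0.1), 2.02 (total reads), 1.87 (quantile), 2.12 (edgeR), 2.09 (DESeq2) and 1.90 to 2.01 on leaving out a library. Of 240 counts over lists, 13 moved by over 1.5 times. Without the filter, neighbours called in normal medium went from 1 to 0, NAD genes in starved cells from 7 to 4 and in the interaction from 4 to 2, which was also 2 with DESeq2. On leaving out a library these counts were 0 to 1, 3 to 7 and 2 to 3, and the ADP-ribosylation interaction was 5 to 9. The cause was not tested, beyond the larger number of genes tested without a filter. No called result reversed. Of the responses not called in the main fit, that of Parp11 in WT cells ran from -0.21 to 0.01. That of Dtx3l in RA cells ran from -0.10 to 0.003. With a replicate block the medians of the 6 genes were the same (1.06 in normal medium) and the ADP-ribosylation genes called under starvation went from 12 to 14. Same-numbered samples deviated together at correlations of -0.00764 to 0.157, which does not establish pairing. Over all genes, calls in normal medium (1084 higher and 479 lower) fell to 492 and 158 without the filter to 454 and 105 without WT_CTL replicate 1, to 624 and 206 without WT_CTL replicate 2, and to 670 and 269 without RA_CTL replicate 2, while edgeR on recovered reads called 992 and 563. The fewest reads behind a value of the 6 genes, 156, limit the precision of Parp14 in starved WT cells.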
